A study of Mus musculus with 18 samples.

Results

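Of the 48023 genes counted in mouse brown preadipocytes, 75 stood close to vehicle after 4 h of FGF6 and well above it after 24 h, by the difference d defined below. They were chosen by their levels in CPM, the counts of a gene over the column total of its library on a common scale. The difference d at a time point is the log2 of the mean CPM with FGF6 minus that with vehicle, each after adding 0.5 CPM. A member had a d of at least 1.2 at 24 h, a d between -0.3 and 0.3 at 4 h, and a mean of at least 1 CPM in at least 1 of the 6 groups, which 13038 genes reached. The cells were one immortalized line, kept in medium with serum and given vehicle or recombinant FGF6 for 4, 8, or 24 h, with 3 libraries in each group and 18 in all. The vehicle cells were harvested at the same 3 time points. Library totals lay between 24327816 and 33471980 counts. Nothing in the labels says whether the 3 libraries of a group came from separate cultures, so p-values measure the spread between libraries, which may be technical.

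FGF6 is a paracrine fibroblast growth factor that acts through receptor tyrosine kinases and the MAP kinase cascade. Genes that such a cascade switches on directly usually respond within the first hours, whereas genes that depend on newly made regulators, secreted factors, or a change in cell state respond later. Brown preadipocytes are stromal cells of brown fat that can become thermogenic adipocytes, and they secrete matrix and growth factors before they do so.

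One library stood apart from its group. The third vehicle library of 24 h held 16 genes, of 10528 genes above 5 CPM, that lay more than 2-fold above the mean of its partners, and no member was among the genes that far apart. The members' median shift in that library was -0.03 on the log2 scale. Without it the rule gave 73 genes, of which 70 were among the 75. The marker genes of preadipocytes were largely present, with summed levels of 5538 to 8052 CPM in the vehicle libraries and 4857 to 6303 CPM in the FGF6 libraries, although Dlk1 had no count in any library. These sums hide opposite changes. At 24 h Vim rose from a mean of 3447 CPM with vehicle to 5162 CPM with FGF6, out of mean sums of 7856 and 5989.9 CPM. Col1a1 fell from 3074 to 436 CPM, and 6 of the 9 markers were called lower at that time. The markers of mature adipocytes had a mean sum of 5.84 CPM with vehicle and 0.201 CPM with FGF6 at 24 h, the myogenic markers had 5.38 and 1.31 CPM, and the Schwann and neuronal markers had 1.68 and 2.32 CPM. Epithelial markers summed to at most 0.462 CPM in any library. The endothelial markers had a mean sum of 0.858 CPM with vehicle and 4.36 CPM with FGF6 at 24 h. Cdh5 had 0.0571 CPM with vehicle and 3.53 CPM with FGF6, and Vwf had 0.693 and 0.691 CPM. The defining marker Pecam1 stayed at or below 0.179 CPM in every group mean. The sum of macrophage and leukocyte markers went from 8.08 to 3.63 CPM at 24 h, with Ptprc at or below 0.0237 CPM in every group mean. Whether other cells had a part in any result was not tested.

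Because the rule used the libraries of 4 and 24 h, the values at those times describe how the genes were chosen. The 8 h libraries entered the rule through the level floor alone. Every member also reached that floor with FGF6 at 24 h, where the lowest mean was 1.03 CPM. The 8 h libraries were tested with edgeR's quasi-likelihood test over 15071 genes, which included all 75. At 8 h, 56 of the 75 genes were higher with FGF6 and 3 were lower at a false discovery rate (FDR) under 0.05, and 16 were not called. Over all genes tested, 32.4% were called higher and 38.4% lower at this time, 70.8% in all. At an FDR under 0.25, 63 of the 75 were higher, against 37.8%. The median log2 fold change at 8 h was 0.79 over the 75 genes and -0.05 over all genes tested. Called higher and at least 2-fold were 26 of them, against 7.39% of all genes tested. In CPM, all 3 FGF6 libraries lay above all 3 vehicle libraries in 55 of the 75 genes and below them in 5, against 30.1% and 43.7% of all genes tested. The label of late induction thus did not describe the 8 h libraries for most of these genes.

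**Figure D1:**
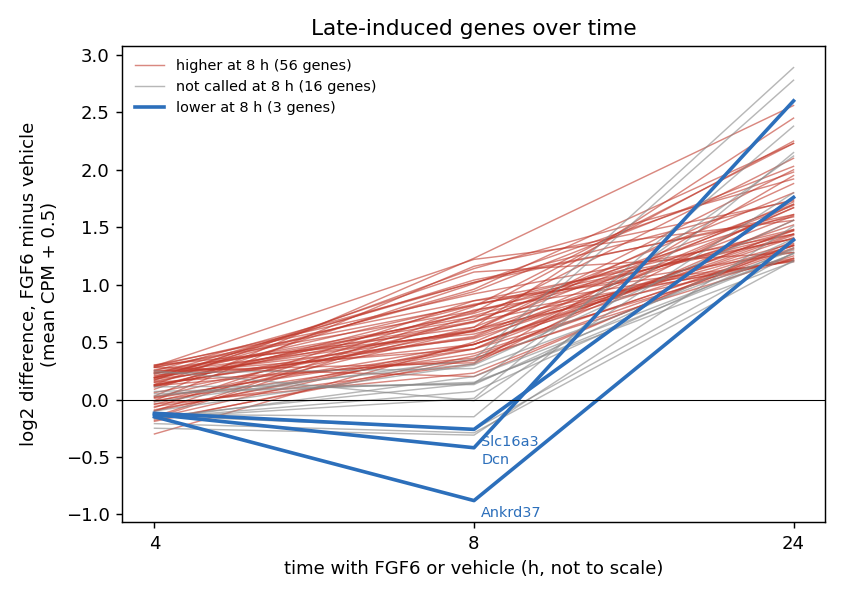
Difference d (log2 of mean CPM + 0.5, FGF6 minus vehicle, vertical axis) of the 75 genes at 4, 8, and 24 h (horizontal axis, not to scale), 1 line a gene, colored by the edgeR call at 8 h. The 56 genes called higher at 8 h climb through that time point, and Slc16a3, Dcn, and Ankrd37 dip below 0 before they rise; the values at 4 and 24 h chose the genes.

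At 24 h the median d was 1.51 and the highest 2.89. All 75 genes were called higher at that time, beside 35.9% of all genes tested, with 37.9% lower and 73.8% called in all, and in all 75 the FGF6 libraries lay above the vehicle libraries, beside 36.0%; the rule made both so. At 4 h the median d was 0.09, and 20 of the 75 genes were nevertheless called higher and 0 lower by edgeR, beside 28.6% of all genes tested called higher and 34.2% called lower, 62.8% in all. The TMM factors of edgeR placed the fold changes of 4 h 0.10 above those over column totals on the log2 scale in the median gene, against 0.06 at 8 h and 0.01 at 24 h. With 45 of the genes the vehicle mean at 24 h was at least 1 CPM, and in these the FGF6 level was 2.32 to 6.17 times the vehicle level, with a median of 2.83. The other 30 had under 1 CPM with vehicle, and 11 of these had 3 counts or fewer in each vehicle library, so that the added 0.5 CPM compresses their d. Mean levels with FGF6 at 24 h ran from 1.03 to 930.3 CPM, with a median of 5.83 CPM.

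Members just inside the threshold at 24 h were Edil3, which sat on the limit, Ulbp1 with a d of 1.204, and Tubb3 with 1.210, and just outside it were Slc25a45 with 1.194, Ang2 with 1.186, and Lbhd1 with 1.183. At the upper limit of 4 h, Slc25a30 at 0.297, Marcksl1 at 0.296, and Chn1 at 0.290 were inside, and Rbpms2 at 0.301, Ptpn5 at 0.316, and Btbd11 at 0.322 were outside. At the lower limit, Rftn1 at -0.297, Nfe2l3 at -0.247, and Tubb3 at -0.210 were inside, and Hspa4l at -0.303, Crem at -0.383, and Osbp2 at -0.419 were outside. The thresholds thus run through a continuous range of values.

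Several members encode secreted proteins or matrix components. The roles by which genes are grouped here and below were assigned after the values were seen. Pi16, a secreted peptidase inhibitor known as a marker of adventitial fibroblast progenitors, had the largest d, 2.89. Its level was 0.246, 0.418, and 0.531 CPM in the vehicle libraries of 24 h and 6.25, 5.20, and 7.04 CPM in the FGF6 libraries. The groups were far apart at 24 h, but at 8 h they overlapped, with 0.297, 0.132, and 0.251 CPM for vehicle and 0.194, 0.674, and 0.411 CPM for FGF6. Its 8 h change was 0.96 ± 0.45 (SE) on the log2 scale, with an edgeR adjusted p of 0.0589. It was called higher without the first FGF6 library of 8 h, the log2 fold change being 1.33, without the first vehicle library of 8 h, with 1.21, and, with the third vehicle library of 24 h left out, with 1.00.

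Dcn encodes decorin, a small proteoglycan that binds collagen fibrils and TGF-β. Its vehicle libraries of 24 h held 21.3, 20.8, and 21.2 CPM and its FGF6 libraries 159.8, 119, and 112 CPM. At 8 h the order was the opposite, with 32.6, 36.7, and 34.9 CPM for vehicle and 28.5, 25.9, and 23.3 CPM for FGF6. That difference was called lower, with a log2 fold change of -0.36 ± 0.11 (SE) and an edgeR adjusted p of 0.00555; without the third FGF6 library of 8 h it was -0.24 and the adjusted p was 0.0736. Among 73 tested genes of collagens, laminins, and other matrix proteins, 16 were higher and 48 lower at 8 h, and 14 were higher and 55 lower at 24 h. Of all genes tested, 32.4% were higher and 38.4% lower at 8 h, and 35.9% and 37.9% at 24 h. The median log2 fold change of the matrix list was -0.45 at 8 h and -1.57 at 24 h, against the rise of Dcn, its single member here.

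Hgf, the ligand of the receptor MET, had 18.2, 15.7, and 17.0 CPM with vehicle at 24 h and 90.1, 80.6, and 77.6 CPM with FGF6. At 8 h it had 23.5, 20.7, and 22.2 CPM with vehicle and 39.4, 39.7, and 34.4 CPM with FGF6. The groups did not overlap at 8 h, where the difference was 0.84 ± 0.07 (SE) on the log2 scale, with an edgeR adjusted p of 1.00e-10. Hgf shares 484 exonic bases on the same strand with the model Gm43489, so its count may be split between them. Bmp2, a bone morphogenetic protein, was near the counting limit. Its counts at 8 h were 1, 0, and 0 with vehicle and 10, 9, and 6 with FGF6, and at 24 h they were 0, 3, and 0 with vehicle and 54, 67, and 80 with FGF6. The 8 h difference was called higher with an edgeR adjusted p of 9.10e-05. Of 87 tested growth factors and receptors, 39 were higher and 33 lower at 8 h, and 29 were higher and 37 lower at 24 h. Hgf and Bmp2 were the members among them. The shares over all genes tested were 32.4% higher and 38.4% lower at 8 h, and 35.9% and 37.9% at 24 h.

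Colec10, a secreted collectin, had 0.704, 0.209, and 0.327 CPM with vehicle and 5.07, 4.71, and 4.87 CPM with FGF6 at 24 h. At 8 h its log2 fold change was 2.84 ± 0.39 (SE), with an edgeR adjusted p of 5.10e-07. Phex, an endopeptidase of the cell surface known for its part in phosphate balance, was one of 7 members whose vehicle level itself rose by at least 0.5 on the log2 scale between 4 and 24 h. Its vehicle mean went from 2.39 to 9.14 CPM and its FGF6 mean from 2.19 to 44.8 CPM. Adamts8, a secreted metalloprotease, had 0 counts in all 3 vehicle libraries of 24 h and 40, 35, and 51 counts in the FGF6 libraries. The tested matrix proteases and inhibitors, 59 in all, had 17 higher and 29 lower at 8 h and 17 higher and 40 lower at 24 h. Hhip, a surface protein that binds Hedgehog ligands, belongs to the list of WNT, Notch, and Hedgehog genes, of which 52 were tested. In that list 15 were higher and 23 lower at 8 h, and 18 were higher and 23 lower at 24 h. Both lists stand beside shares over all genes tested of 32.4% higher and 38.4% lower at 8 h. The shares at 24 h were 35.9% and 37.9%.

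**Figure D2:**
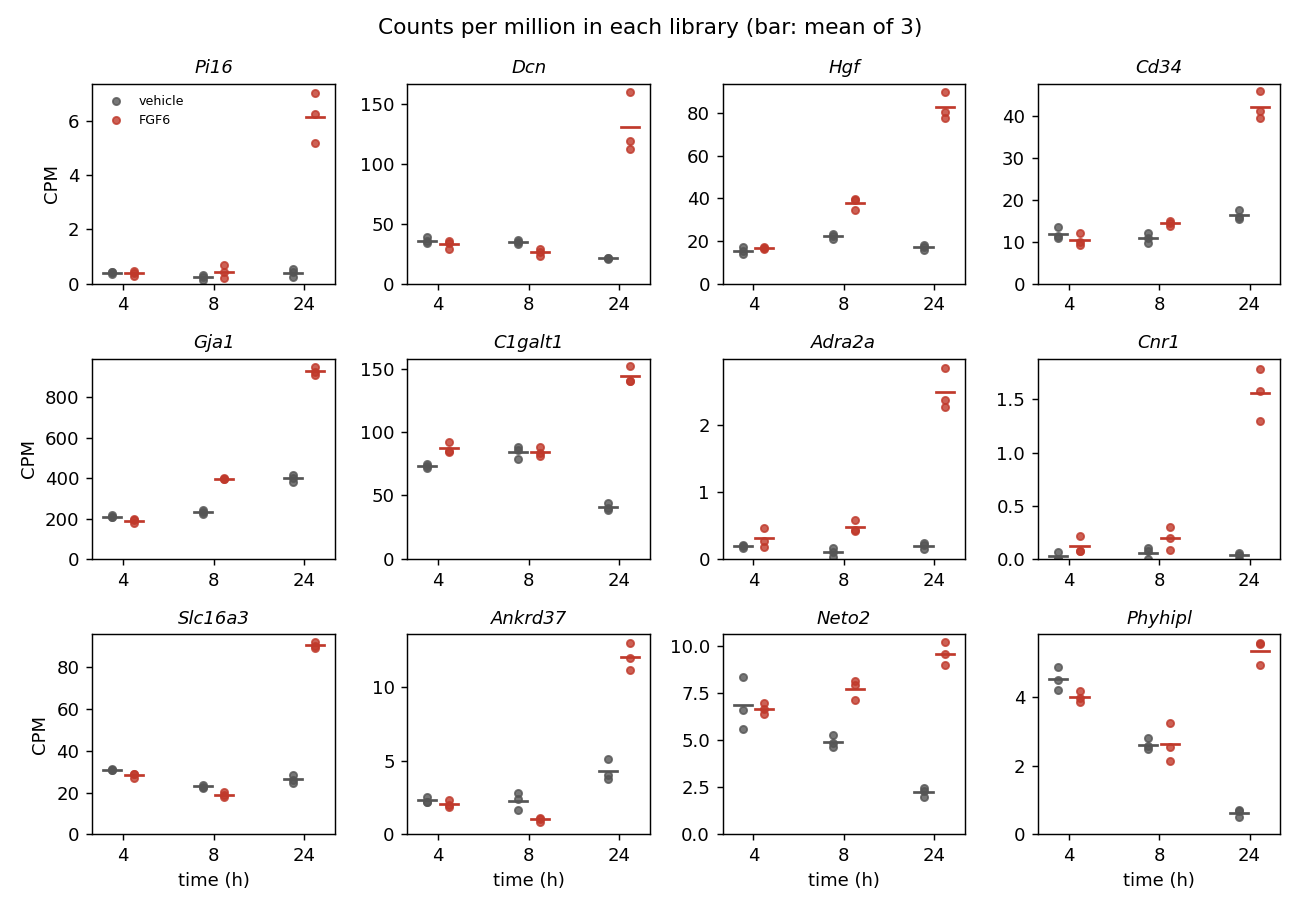
Level in CPM (vertical axes, each from 0) of 12 genes in each library of vehicle (gray) and FGF6 (red) at 4, 8, and 24 h, with a bar at the mean of 3 libraries. Vehicle and FGF6 lie close together at 4 h and apart at 24 h in all 12, which the rule fixed, while at 8 h Hgf and Gja1 are already apart and C1galt1 and Phyhipl are not.

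Surface receptors and adhesion proteins formed a second group. Cd34, a surface sialomucin used as a marker of stromal progenitors, was both a member and one of the 9 preadipocyte markers. It had 17.6, 15.5, and 16.0 CPM with vehicle and 39.6, 46.0, and 41.2 CPM with FGF6 at 24 h. Of the 9 markers, 2 were called higher by edgeR at 24 h, Cd34 and Vim, and 6 were called lower, while Dlk1 had no count. Over all genes tested, 35.9% were called higher and 37.9% lower at that time. Pdgfrb had a mean of 685 CPM with vehicle and 132 CPM with FGF6 at 24 h, Ly6a had 239.9 and 31.8 CPM, and Vim had 3447 and 5162 CPM. At 8 h Cd34 was called higher with a log2 fold change of 0.46 ± 0.10 (SE) and an edgeR adjusted p of 0.000174, and Ly6a was called lower with -1.24 ± 0.10 (SE) and 3.62e-11. In bulk RNA, a change in the number of cells of a type and a change of RNA per cell cannot be told apart.

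Gja1, which encodes the gap junction protein connexin 43, had the highest CPM of the 75 genes, with no correction for length. The vehicle libraries of 24 h held 417, 382, and 403 CPM and the FGF6 libraries 952, 913, and 926 CPM. At 8 h the groups were already separate, at 242, 230.3, and 224 CPM against 396, 398, and 399 CPM, with a log2 fold change of 0.84 ± 0.04 (SE) and an edgeR adjusted p of 1.45e-16. Vehicle cells also gained Gja1 with time, from a mean of 209.8 CPM at 4 h to 401 CPM at 24 h. Among 49 tested adhesion molecules, 25 were higher and 18 lower at 8 h, and 29 were higher and 17 lower at 24 h. Of all genes tested, 32.4% were higher and 38.4% lower at 8 h, and 35.9% and 37.9% at 24 h.

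Adra2a and Cnr1 encode an α2-adrenergic receptor and the cannabinoid receptor CB1, both of which couple to inhibitory G proteins. Adra2a had 4, 7, and 6 counts with vehicle and 66, 81, and 63 counts with FGF6 at 24 h, and Cnr1 had 0, 2, and 1 against 44, 51, and 36. The counts of Adra2a at 8 h were 5, 1, and 3 with vehicle and 18, 13, and 10 with FGF6, and the edgeR adjusted p was 0.000137. Cnr1 had 0, 3, and 2 counts with vehicle and 6, 9, and 2 with FGF6 at 8 h, so its libraries overlapped. Its call at 8 h, with an edgeR adjusted p of 0.0409 and a log2 fold change of 1.80 ± 0.77 (SE), was lost when the first or the second FGF6 library or the first or the third vehicle library of 8 h was left out, with log2 fold changes of 1.82, 1.35, 1.23, and 1.97. Sele, which encodes E-selectin, had 0, 0, and 1 counts with vehicle and 6, 8, and 7 with FGF6 at 8 h, and 0, 1, and 0 against 17, 47, and 35 at 24 h. Igsf5, an immunoglobulin superfamily protein of cell junctions, had a d of 2.78 at 24 h, but it shares 788 exonic bases with a second gene model of the same name on the same strand. Neo1, a receptor of netrins and RGM proteins, was abundant and even across replicates. Its libraries held 224, 223, and 226 CPM with vehicle and 519.8, 531, and 531 CPM with FGF6 at 24 h, and the log2 fold change at 8 h was 0.74 ± 0.04 (SE), with an edgeR adjusted p of 8.00e-16. Of 57 tested axon guidance and neuronal genes, which include Neo1 and Tubb3, 22 were higher and 28 lower at 8 h, and 24 were higher and 26 lower at 24 h. The shares over all genes tested were 32.4% higher and 38.4% lower at 8 h, and 35.9% and 37.9% at 24 h.

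Among the members were a pair of glycosylation enzymes. C1galt1 extends the first sugar of mucin-type O-glycans with galactose, and Galnt7 is a transferase of N-acetylgalactosamine in the same pathway. C1galt1 had 79.1, 88.1, and 86.1 CPM with vehicle and 87.9, 83.3, and 80.9 CPM with FGF6 at 8 h. These values overlapped, and the log2 fold change was 0.06 ± 0.05 (SE), with an edgeR adjusted p of 0.319. At 24 h its vehicle libraries had 40.0, 38.8, and 44.4 CPM and its FGF6 libraries 152, 140.3, and 140.0 CPM. Galnt7 was already separate at 8 h, with 40.9, 38.6, and 43.8 CPM against 60.9, 63.5, and 62.9 CPM and a log2 fold change of 0.67 ± 0.05 (SE), with an edgeR adjusted p of 1.83e-12.

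Slc16a3 and Ankrd37 were below vehicle at 8 h and above it at 24 h. Slc16a3 encodes MCT4, which exports lactate, and Ankrd37 is a known target of hypoxia-inducible factor. Slc16a3 had 22.8, 23.8, and 22.2 CPM with vehicle and 20.4, 17.7, and 19.0 CPM with FGF6 at 8 h. At 24 h it had 26.2, 28.2, and 24.8 CPM against 92.1, 89.4, and 90.4 CPM. The 8 h log2 fold change was -0.20 ± 0.06 (SE), with an edgeR adjusted p of 0.00296. Ankrd37 had 2.84, 2.38, and 1.65 CPM with vehicle and 1.13, 1.04, and 0.863 CPM with FGF6 at 8 h, and 4.05, 3.73, and 5.11 CPM against 11.2 to 13.0 CPM at 24 h. Its log2 fold change at 8 h was -1.10 ± 0.21 (SE), with an edgeR adjusted p of 5.23e-05; it shares 406 exonic bases with genes on the opposite strand. Of 34 tested genes of glycolysis and glucose uptake, 11 were higher and 17 lower at 8 h, and 19 were higher and 14 lower at 24 h, with medians of -0.23 and 0.36 on the log2 scale. All genes tested had 32.4% higher and 38.4% lower at 8 h, and 35.9% and 37.9% at 24 h.

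Other members act inside the cell. Fkbp4, a co-chaperone of HSP90, had 292, 275, and 266 CPM with vehicle and 618, 652, and 662 CPM with FGF6 at 24 h, and per kilobase of exon it had the highest level of the 75 genes, 230.5 CPM per kb. Its log2 fold change at 8 h was 0.79 ± 0.03 (SE), with an edgeR adjusted p of 2.11e-17. Rcor2, a corepressor subunit that works with the demethylase LSD1, had 20.3, 21.0, and 19.9 CPM with vehicle and 40.5, 41.8, and 42.2 CPM with FGF6 at 8 h, a log2 fold change of 1.09 ± 0.06 (SE). Prkaa2, the α2 catalytic subunit of AMP-activated protein kinase, was also called higher at 8 h, by 0.58 ± 0.13 (SE) on the log2 scale. Syne1, a giant protein of the nuclear envelope, had a mean of 40.7 CPM with vehicle and 114 CPM with FGF6 at 24 h. The channel subunit Cacnb2 had means of 3.22 and 13.5 CPM. Among the 20 genes with the widest gap, Fer1l6, Dnajc22, and the noncoding Gm20744 had vehicle means under 1 CPM at 24 h, and Zfp52 had means of 8.63 and 31.4 CPM.

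**Figure D3:**
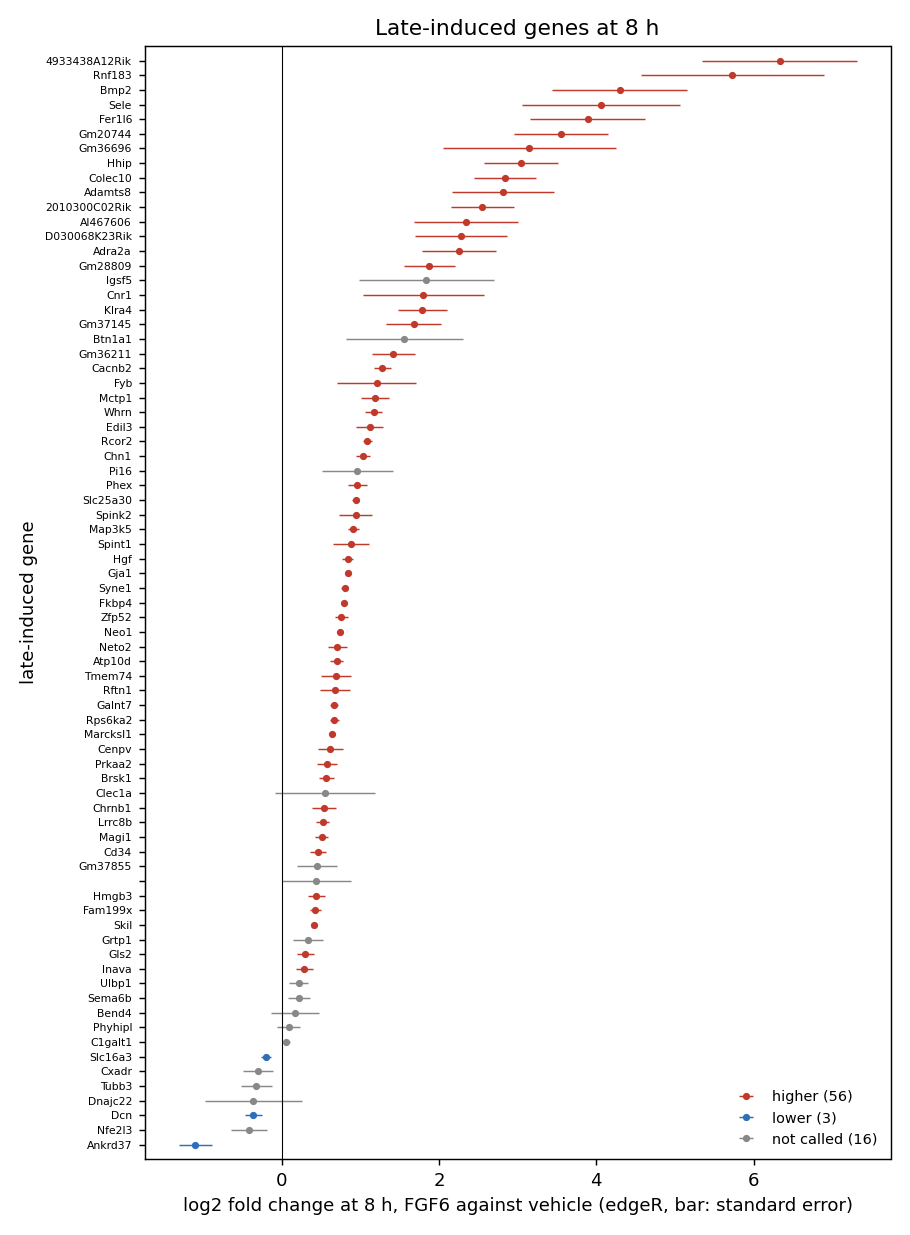
Log2 fold change at 8 h (horizontal axis, FGF6 against vehicle, edgeR) of each of the 75 genes (vertical axis, by rank), with bars for the standard error and colors for the call; 1 gene carries no label. The 56 genes called higher include those with the widest bars, which have few counts, and the 3 called lower are Slc16a3, Dcn, and Ankrd37.

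The 6 largest fitted fold changes at 8 h belonged to 4933438A12Rik, Rnf183, Bmp2, Sele, Fer1l6, and Gm20744. All 6 had 0 to 2 counts in each vehicle library of 8 h. The noncoding 4933438A12Rik had 9, 12, and 8 counts with FGF6, and Rnf183, a ubiquitin ligase, had 9, 3, and 7, against 0 in all 3 vehicle libraries in both cases, so their fitted values depend on the model's prior. The median over the 75 genes was also 0.79 with these 2 genes set to the bound that 3 counts in each vehicle library allow. Both stay above the median at that bound, so it could not move, and this says nothing about the other genes with few counts. At the other end stood Ankrd37, Nfe2l3, Dnajc22, Dcn, Tubb3, and Cxadr. Nfe2l3, a transcription factor of the cap'n'collar family, had 1.19, 0.959, and 1.25 CPM with vehicle and 0.841, 0.707, and 0.904 CPM with FGF6, and an edgeR adjusted p of 0.123. Dnajc22, a DnaJ family protein, had counts of 2, 4, and 15 with vehicle and 8, 4, and 3 with FGF6 at 8 h; without the third vehicle library of 8 h its log2 fold change went from -0.36 to 0.86. Tubb3, a β-tubulin of neurons, had -0.32 ± 0.20 (SE) and was called lower without that library, at -0.49.

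The gap at 24 h was divided into the change of the FGF6 groups and that of the vehicle groups between 4 and 24 h. The FGF6 level rose by at least 0.5 on the log2 scale in 65 of the 75 genes, and the vehicle level fell by at least that much in 18, with 9 genes in both counts. The median change was 1.42 with FGF6 and -0.04 with vehicle, against 0.04 and -0.05 over the 13038 genes above the level floor. The same libraries chose the genes, and the rule made the change with FGF6 exceed that with vehicle in every member. These values are therefore a description, and how the gap divides between the arms was not tested. In 10 genes the FGF6 level rose by under 0.5: Inava, Skil, Whrn, Atp10d, Fkbp4, Neto2, Tubb3, Map3k5, Phyhipl, and Rps6ka2. They are named because their rise with FGF6 was below this cutoff or absent, and were picked after their values were seen. Fkbp4, Neto2, and Rps6ka2 each still rose by 0.49. In 16 of the 75 genes the vehicle level fell by more than the FGF6 level rose. Among these were C1galt1, with 0.72 for FGF6 and -0.83 for vehicle, and Rcor2, with 0.86 and -1.03. Phyhipl had 4.88, 4.52, and 4.22 CPM with vehicle at 4 h and 0.704, 0.687, and 0.490 CPM at 24 h, while FGF6 libraries had 4.19, 3.88, and 3.98 CPM at 4 h and 4.96, 5.59, and 5.56 CPM at 24 h. Phyhipl shares 1055 exonic bases with Fam13c on the opposite strand. Neto2, an auxiliary subunit of kainate receptors, went from a vehicle mean of 6.85 to 2.25 CPM, and from 6.67 to 9.58 CPM with FGF6. Skil, a repressor of SMAD signaling, went from 69.2 to 31.3 CPM with vehicle and from 76.9 to 78.0 CPM with FGF6. Map3k5, the stress kinase ASK1, went from 19.9 to 7.56 CPM with vehicle and from 24.2 to 20.7 CPM with FGF6. In 72 of the 75 genes the highest of the 6 group means was that of FGF6 at 24 h, the others being Whrn, Tubb3, and Map3k5. The rule favors this, since it asks for a level with FGF6 at 24 h well above vehicle.

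**Figure D4:**
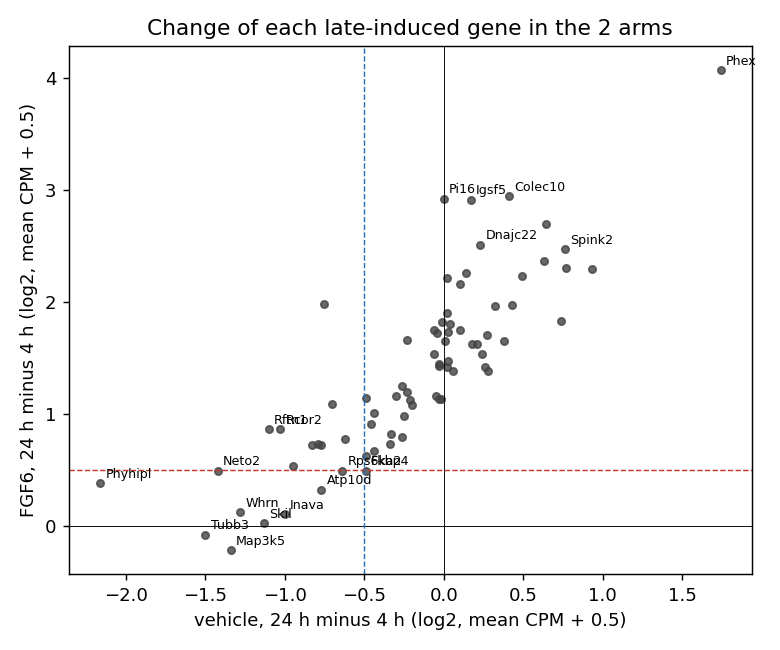
Change of each of the 75 genes between 4 and 24 h (log2 of mean CPM + 0.5) with vehicle (horizontal axis) and with FGF6 (vertical axis), with dashed lines at -0.5 and 0.5. Most genes lie near 0 with vehicle and above 0.5 with FGF6, Phex rose in both, and the 10 genes below the horizontal dashed line lie to the left, where vehicle fell. The libraries of 4 and 24 h chose the genes.

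The genes that the study follows from FGF6 to UCP1 were not members. Ucp1, the uncoupling protein of brown fat, had the late pattern, with 0 CPM in the other 5 groups and a mean of 0.727 CPM with FGF6 at 24 h, a d of 1.30, and was kept out by the level floor alone, as were Aqp8, Erich3, Grhl2, and Pate1. Ptgs2 and Ptges, which make prostaglandin E2, were already up at 4 h, with d values of 2.94 and 1.41, and so was Lrrfip1 with 1.12. Esrra had 0.60 at 4 h and 0.05 at 24 h, Flii had -0.12 and 0.08, and Fgfr3 had -0.90 and -0.35. At 8 h Flii was not called, with a log2 fold change of 0.02 ± 0.04 (SE) and an edgeR adjusted p of 0.635. Dio2 had no count and Cidea at most 0.0120 CPM in any group mean. The paper reports a rise of both by quantitative PCR after days of FGF6, which is later than any library here. None of the 19 tested thermogenic genes and none of the 13 tested genes of prostaglandin E2 synthesis, breakdown, and receptors was a member. In the thermogenic list 4 were higher and 7 lower at 8 h, and 4 were higher and 9 lower at 24 h. In the prostaglandin list 11 were higher and 1 lower at 8 h, and 9 were higher and 3 lower at 24 h. Both lists stand beside shares over all genes tested of 32.4% higher and 38.4% lower at 8 h. The shares at 24 h were 35.9% and 37.9%.

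Compared with genes already higher at 4 h, the 75 were fewer. By the same cutoff at 24 h, 457 genes had a d above 0.3 at 4 h and 6 had a d below -0.3. At 8 h edgeR called 454 of the 457 higher, with a median log2 fold change of 1.92, beside 56 of 75 and 0.79. The mirror image, a d of at most -1.2 at 24 h and within 0.3 at 4 h, held 265 genes, of which 209 were called lower and 7 higher at 8 h, with a median of -0.71. Over all genes tested, 32.4% were called higher and 38.4% lower at 8 h. These sets of genes share their control libraries, and the difference between the sets was not tested.

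The 75 genes lay on 18 chromosomes, at most 7 on one, and no 2 lay within 500000 bases of each other. By the GENCODE annotation 66 were protein coding, or 88.0%, beside 85.4% of all genes tested, and 5 were lincRNA genes. In all, 20 shared exonic bases with another gene, 18 of them on the opposite strand, and since the strand setting of the counting is not given in the sources used here, reads of such pairs cannot be told apart. Klra4 belongs to a multigene family, and its count is uncertain.

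Promoter windows of 300 bases around annotated starts were read from RefSeq (GRCm38.p6) for 54 of the 75 genes, 72 windows in all, and for 10683 tested genes, 13620 windows. Letters were searched on both strands. The AP-1 letters TGANTCA were in 8 of the 72 windows, or 11.1%, and in 5.43% of all windows. The ETS letters CCGGAAG were in 2 windows, or 2.78%, against 16.6%, and the CRE letters TGACGTC in 2 windows, against 5.24%. The estrogen-related receptor letters AAGGTCA were in 0 windows, against 3.21%, and the E-box CACGTG in 3, or 4.17%, against 9.77%. For TEAD (GGAATG) the shares were 9.72% and 12.3%, for E2F (TTCCCGC) 8.33% and 8.02%, and for the TATA letters TATAAA 9.72% and 7.39%. A match of letters is a description and not a site.

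The following windows, 5′ to 3′ on the strand of the gene, belong to members whose values are given here, plus Spint1, an inhibitor of the HGF activator picked after its values were seen. They were chosen because they hold the AP-1 or E-box letters, and capitals mark every match to the searched letters. Gja1 lies at chr10:56377050-56377349 (AP-1), Spint1 at chr2:119237110-119237409 (ETS, then AP-1), Sele at chr1:164047984-164048283 (AP-1, then TATA), Adra2a at chr19:54045009-54045308 (E-box, then TATA), and Cnr1 at chr4:33924394-33924693 (E-box), all on the plus strand.
Gja1: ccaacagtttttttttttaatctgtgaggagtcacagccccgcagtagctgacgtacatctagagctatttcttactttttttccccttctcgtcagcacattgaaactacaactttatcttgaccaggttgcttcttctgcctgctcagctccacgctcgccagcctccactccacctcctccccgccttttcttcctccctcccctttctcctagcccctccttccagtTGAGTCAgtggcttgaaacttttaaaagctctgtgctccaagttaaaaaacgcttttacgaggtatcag
Spint1: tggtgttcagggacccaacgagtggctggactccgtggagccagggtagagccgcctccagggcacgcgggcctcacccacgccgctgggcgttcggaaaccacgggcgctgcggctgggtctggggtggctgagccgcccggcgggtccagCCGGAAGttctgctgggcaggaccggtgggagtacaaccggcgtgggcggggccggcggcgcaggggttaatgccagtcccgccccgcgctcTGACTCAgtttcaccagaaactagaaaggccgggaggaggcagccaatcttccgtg
Sele: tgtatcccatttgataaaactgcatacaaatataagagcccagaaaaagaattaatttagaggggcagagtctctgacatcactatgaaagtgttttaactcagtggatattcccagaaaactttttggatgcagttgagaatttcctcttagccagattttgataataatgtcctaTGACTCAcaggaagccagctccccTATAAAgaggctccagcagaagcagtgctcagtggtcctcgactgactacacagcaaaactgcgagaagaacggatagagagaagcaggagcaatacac
Adra2a: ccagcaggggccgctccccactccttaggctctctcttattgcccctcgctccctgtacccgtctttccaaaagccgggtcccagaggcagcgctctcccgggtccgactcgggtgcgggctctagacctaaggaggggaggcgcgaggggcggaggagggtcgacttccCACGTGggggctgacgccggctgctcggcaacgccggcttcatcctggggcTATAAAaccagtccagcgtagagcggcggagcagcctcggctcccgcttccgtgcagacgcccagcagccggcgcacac
Cnr1: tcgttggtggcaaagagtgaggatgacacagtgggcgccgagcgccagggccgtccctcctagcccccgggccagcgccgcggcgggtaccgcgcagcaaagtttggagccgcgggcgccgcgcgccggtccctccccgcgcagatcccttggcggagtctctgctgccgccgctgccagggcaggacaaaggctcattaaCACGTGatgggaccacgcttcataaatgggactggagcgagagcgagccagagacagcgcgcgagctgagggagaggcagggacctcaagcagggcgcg
Of the 8 member genes with the AP-1 letters in a window, 7 were called higher at 8 h and Sema6b was not, beside 56 of all 75 members and 32.4% of all genes tested. Spint1 at 8 h had 1.59, 2.12, and 1.29 CPM with vehicle and 2.75, 2.63, and 3.49 CPM with FGF6, with an edgeR adjusted p of 0.00175, and at 24 h it had 1.34, 1.28, and 0.409 CPM against 3.74, 4.29, and 5.23 CPM.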

How the data were processed

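RNA was sequenced from immortalized mouse brown preadipocytes given FGF6 or vehicle, and harvested at 3 times, with 3 libraries in each of the 6 groups that the labels name. The authors aligned the reads to GRCm38 with STAR and deposited raw counts per gene from Subread featureCounts, without normalization; tool versions, strand setting, and the handling of multi-mapping reads are not given in the sources used here. All 18 libraries were used, with 24327816 to 33471980 counts each; 3 counts correspond to 0.0896 to 0.123 CPM, and this limit covers counting error alone. The members and gene lists were chosen with earlier results of these data known. Genes were kept by filterByExpr, which left 15071 of 48023, and the arms of each time point were compared by edgeR 4.0.16 (R 4.3.3, TMM factors, quasi-likelihood test, Benjamini-Hochberg adjustment, FDR under 0.05). Each SE was derived as the size of the log2 fold change over the square root of the F statistic. It is not an estimate that edgeR gives, and it is rough for genes with few counts. The study used limma with voom at an FDR under 0.25, which were alternatives here (limma 3.58.1), as was DESeq2 1.42.0. On simulated counts for the 8 h comparison, over 14679 genes, 98 of 100 2-fold changes, 91 of 100 changes of 0.5 (log2), and 9 of 14479 unchanged genes were called. The changed genes were drawn from those averaging at least 1 CPM, and every gene was given the same dispersion. These rates therefore do not hold for members with few counts. Named were the 20 members with the largest d at 24 h, the 10 with the highest level, the 6 largest and 6 smallest fold changes at 8 h, up to 4 a gene list, the genes next to each threshold, and the genes the study follows; others are marked in the text, and 1 gene under this rule is not reported here by name. Gene lists shown are the pathway lists that hold a member, with the thermogenic and prostaglandin lists. Symbols came from the GENCODE table for 47224 of 48023 IDs. All columns of the deposited table were used.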

Additional observations from a re-analysis of the deposited data

Results flagged for a closer look

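In 5 of the 75 genes all 3 FGF6 libraries lay below all 3 vehicle libraries at 8 h and above them at 24 h, and this difference between the times was not tested, since the libraries of 24 h chose the genes. The log2 fold change at 8 h was -1.10 for Ankrd37, -0.41 for Nfe2l3, -0.36 for Dcn, -0.30 for Cxadr, and -0.20 for Slc16a3. edgeR called Ankrd37, Dcn, and Slc16a3 lower at 8 h, whereas Nfe2l3 and Cxadr, the coxsackievirus and adenovirus receptor, had adjusted p-values of 0.123 and 0.160. Over all genes tested, 43.7% had their FGF6 libraries below the vehicle libraries at 8 h.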

How the results depend on the processing

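The count of 56 genes higher at 8 h lay between 47 and 60 with column totals alone, upper-quartile factors, limma with voom, DESeq2, no filter, only the libraries of 8 h, or the replicate block, and 45 of the 75 genes were called higher both in the reported test and in 7 alternatives. A minimum of 10 counts in all libraries left 49 of the 75 genes to be tested, and 37 were higher. With a 2-fold minimum 26 were higher and 1 lower, and at an FDR under 0.25 there were 63 higher and 6 lower. The median log2 fold change of 0.79 became 0.72 with column totals alone, 0.74 with upper-quartile factors, 0.82 with DESeq2, 0.73 over the 60 genes kept when only the libraries of 8 h were used, and 0.66 with the 10-count minimum. With members and fit both made without the third vehicle library of 24 h, an alternative chosen after seeing the data, it was 0.87, with 57 of 73 genes higher. Leaving out each library of 8 h in turn gave 54 to 56 genes higher, 2 to 4 lower, and medians of 0.78 to 0.83. The sign at 8 h turned for C1galt1 with column totals (-0.01), for Dnajc22 with limma and voom (0.05) and without the third vehicle library of 8 h (0.86, the other libraries left out in turn giving values down to -0.82), and for Phyhipl without the first FGF6 library of 8 h (-0.09); none of these was called, and the cause was not tested. Igsf5 was called higher with DESeq2 (1.99), without a filter (1.85), and without the second FGF6 library of 8 h (2.23). The gene list counts stayed within 1.5 times.

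Membership depended on how low levels were treated. A floor of 5 CPM left 43 genes, since the other members had no group mean that high. An offset of 0.1 CPM gave 80 genes, 55 of them shared with the 75, an offset of 1 CPM gave 64 with 53 shared, and TMM-scaled totals gave 66 with 63 shared. Leaving out each library of 4 and 24 h in turn gave 71 to 83 genes. Same-numbered libraries share only a number: the correlation of their deviations was between -0.03 and 0.05, and not every library correlated best with its own number. With the replicate block, 56 genes were higher and 3 lower at 8 h, with a median of 0.79. Genes with few counts limit the depth of what can be said at 8 h.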
